A study of Mus musculus with 6 samples.

Results

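The phagocyte NADPH oxidase subunits were read here as 6 of 21936 listed mouse genes, chosen by symbol: Cybb and Cyba, Ncf1 and Ncf4, and the GTPases Rac1 and Rac2. They are not every component of the enzyme. RNA was sequenced from sorted macrophages of mice kept for 4 months on a high-fat diet, in 3 WT-labelled libraries and 3 labelled CKO. Mice of the WT label were ALKBH5flox/flox and APOE-/-. Those of the CKO label were also ALKBH5flox/flox and APOE-/- and in addition carried Lyz2-Cre, a recombinase expressed from the lysozyme locus of myeloid cells, so that by label both groups shared the loxP-flanked Alkbh5 and the Apoe deletion. The labels give neither age, tissue nor sort markers, nor do they tie a library to an animal, and p-values therefore measure only the spread among these libraries, which may be technical.

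The phagocyte oxidase carries electrons from NADPH across a membrane to oxygen and makes superoxide, used to kill ingested microbes and to signal. A heme-bearing catalytic protein (Cybb) and its stabilising partner (Cyba) sit in the membrane. Cytosolic proteins, among them the organiser encoded by Ncf1 and the phosphoinositide-binding protein encoded by Ncf4, join them on stimulation together with a GTP-loaded Rac. Loss of a subunit causes chronic granulomatous disease, and in atherosclerosis the enzyme is known as a source of oxidants in the vessel wall.

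Depth was 15422154 to 18418903 reads per library assigned to genes, and values are deposited FPKM (reads per kb of gene length, scaled to the reads of the library). The label check failed for the targeted gene: Alkbh5 read 3.87 ± 0.0879 FPKM in the WT-labelled libraries and 8.75 ± 0.350 in the CKO-labelled ones (SD, n = 3), and Apoe, labelled as deleted in both, read 1635 ± 29.3 and 95 ± 4.69. Lyz2, whose locus drives the Cre, read 15116 ± 992 and 6556 ± 211. Values over a whole gene cannot show whether a transcript lacked an exon. Directions below go by label alone, since the genotype could not be checked. All 14 macrophage markers were detected, of which 6 were called higher and 8 lower under the CKO label, where 30.5% of all tested genes were called higher and 50.5% lower. Their summed FPKM was 17237 to 19151 under the WT label and 9695 to 10117 under the CKO label, most of it Lyz2. Without Lyz2, a sum chosen after seeing the data, the other 13 gave 2841 to 2920.3 and 3266 to 3319.8, higher under the CKO label. Of these 13, however, 6 were called higher and 7 lower, and such a sum weighs abundant genes most. The median log2 change of all 14 was -0.92, against -0.14 over all tested genes.

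The mRNA of 4 subunits, Cybb, Ncf1, Ncf4 and Rac2, was higher in the CKO-labelled libraries, and that of Cyba and Rac1 was lower, the latter pair not past the test after median-of-ratios or TMM scaling. All 6 passed the filter, an FPKM of 1 or more in 3 or more libraries, and all 6 were called by limma at an adjusted p under 0.05. The background was high: of 9953 genes tested, 81.1% were called, 30.5% higher and 50.5% lower, and the groups did not overlap for 82.5%, with CKO above WT for 31.2% and below for 51.3%, beside 4 and 2 of the 6 subunits. A call by itself thus says little about these genes, and size and order are given below. The median log2 fold change was 0.44 over the 6 subunits and -0.14 over all tested genes. In bulk RNA, a change in the share of cells of a type and a change in RNA per cell cannot be told apart.

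**Figure D1:**
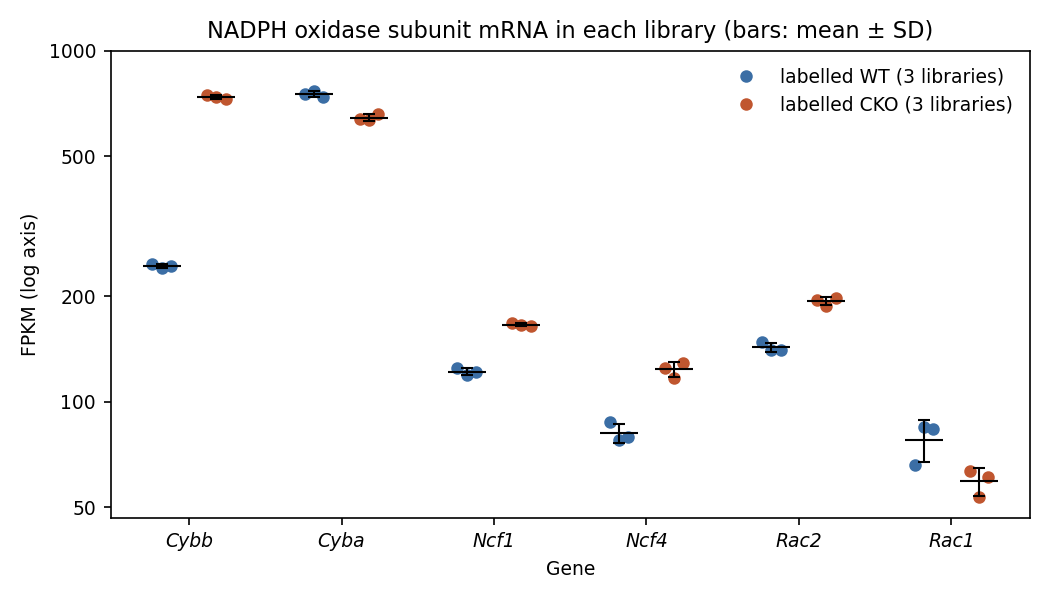
FPKM (log axis) of each subunit in the 3 WT-labelled libraries and the 3 labelled CKO. Points are libraries and bars are mean ± SD. Cybb lies near 244 FPKM in the WT-labelled libraries and near 739 in the CKO-labelled ones, while the WT-labelled libraries spread widest for Rac1, from 65.9 to 84.7.

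Cybb, the catalytic subunit that binds heme and NADPH, changed most of the 6. It read 246, 241 and 244 FPKM in the WT-labelled libraries and 749.9, 739 and 727 in the CKO-labelled ones. Every CKO-labelled library was far above every WT-labelled library, and neither group spread by more than 1.54% (coefficient of variation). The means were 244 ± 2.93 and 739 ± 11.4 FPKM (SD, n = 3), a 3.03-fold difference. On log2(FPKM + 1) the change was 1.6 (SE 0.025, 95% interval 1.54 to 1.65, limma adjusted p = 2.78e-13). Among all tested genes 95.4% had a lower fold change, and 8.35% were called higher by at least 1 on the log2 scale. By level Cybb went from rank 130 to rank 38 of the tested genes. The gene (ENSMUSG00000015340) lies on chromosome X, 9435252 to 9487771, minus strand, mm10, and overlaps no other annotated gene.

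Cyba, which encodes the small membrane partner that keeps the catalytic protein stable, was the most abundant subunit in the WT-labelled libraries. It read 755, 769.8 and 739 FPKM there and 638, 635 and 661 in the CKO-labelled libraries. The groups did not overlap, but the gap was small. The means were 755 ± 15.4 and 645 ± 14.5 FPKM (SD, n = 3), with a log2 change of -0.23 (SE 0.027, 95% interval -0.29 to -0.17, limma adjusted p = 1.23e-05). Median-of-ratios scaling, which assumes that most genes do not change, gave -0.042 (limma adjusted p = 0.238), and TMM scaling -0.043 (adjusted p = 0.272), neither past the threshold, while quantile normalization gave -0.37 and kept the call. The gene (ENSMUSG00000006519, chromosome 8, 122424776 to 122432930, minus strand) shares 0 exon bases with its overlapping neighbour Galnt2l, which was listed at 0 in every library.

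Ncf1 encodes the cytosolic organiser whose phosphorylation starts assembly. It read 124, 119 and 122 FPKM in the WT-labelled libraries and 167, 166 and 164 in the CKO-labelled ones. The groups were well apart and each was tight. The means, 122 ± 2.66 and 166 ± 1.5 FPKM (SD, n = 3), differed by 0.44 on the log2 scale (SE 0.028, 95% interval 0.38 to 0.50, limma adjusted p = 4.29e-08). The gene (ENSMUSG00000015950) lies on chromosome 5, 134220053 to 134229625, minus strand. It shares 408 of its 3663 exon bases with Gtf2ird2 on the opposite strand, a gene with 356 to 495 reads per library against at least 7435 for Ncf1.

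Promoter windows are shown for the 3 of the 6 genes that the RefSeq table (GRCm38.p6) matched. Their ratios of group means were 3.03 for Cybb, 1.36 for Ncf1 and 0.854 for Cyba. Each window runs from 250 bases before to 50 after the annotated start, printed 5′ to 3′ on the gene's own strand. For Cybb this start lies inside the longer gene that the files list. Capitals mark matches, on either strand, to the PU.1 core GAGGAA, the interferon-stimulated response element (GAAA, any 2 bases, GAAA), the gamma-activated site TTCNNNGAA, the CCAAT box CCAAT and the GC box GGGCGG.
Cybb (chrX:9469275-9469574, minus strand): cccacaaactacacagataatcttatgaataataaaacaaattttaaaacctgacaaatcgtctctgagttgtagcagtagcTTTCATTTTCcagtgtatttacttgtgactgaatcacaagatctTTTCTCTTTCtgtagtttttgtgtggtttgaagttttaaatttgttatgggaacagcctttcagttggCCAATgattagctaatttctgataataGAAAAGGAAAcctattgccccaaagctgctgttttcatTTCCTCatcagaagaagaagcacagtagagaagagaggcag
Cyba (chr8:122432891-122433190, minus strand): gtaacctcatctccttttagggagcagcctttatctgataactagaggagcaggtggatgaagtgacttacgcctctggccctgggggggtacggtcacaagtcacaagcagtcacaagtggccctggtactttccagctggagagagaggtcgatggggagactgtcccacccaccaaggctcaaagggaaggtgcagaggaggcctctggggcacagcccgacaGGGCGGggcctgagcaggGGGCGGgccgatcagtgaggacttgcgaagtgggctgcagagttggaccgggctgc
Ncf1 (chr5:134229576-134229875, minus strand): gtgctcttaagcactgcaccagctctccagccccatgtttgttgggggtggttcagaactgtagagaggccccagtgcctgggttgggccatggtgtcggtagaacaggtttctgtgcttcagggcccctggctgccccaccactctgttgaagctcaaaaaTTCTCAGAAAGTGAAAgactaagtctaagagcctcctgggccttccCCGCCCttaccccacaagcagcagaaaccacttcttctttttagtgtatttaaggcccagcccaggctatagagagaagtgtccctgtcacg

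The Cybb window held 3 matches to the interferon-stimulated element, at -168 to -159 and -124 to -115 on the opposite strand and at -29 to -20 on the same strand, counted from the start. It also held a CCAAT box at -56 to -52 and a PU.1 core at 10 to 15 on the opposite strand. The Ncf1 window held 1 interferon-stimulated match at -82 to -73, which overlaps a gamma-activated match at -88 to -80, and 1 GC box. The Cyba window held 2 GC boxes and none of the other motifs. Of 32851 windows of this length, 3.44% held the interferon-stimulated letters, 8.30% the gamma-activated site, 28.3% the PU.1 core, 37.4% the CCAAT box and 35.7% the GC box. GC content was 35.3% for Cybb, 54.0% for Ncf1 and 60.7% for Cyba, beside a median of 52.7% and a lower quartile of 45.7% over all windows. The shares of windows with a motif were not matched for GC content. A match describes letters, not a bound site, and a link between these letters and the fold changes was not tested.

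Ncf4 encodes a cytosolic subunit that binds a phosphoinositide of phagosome membranes. It read 87.3, 77.6 and 79.6 FPKM in the WT-labelled libraries and 125, 117 and 129 in the CKO-labelled ones. All 3 CKO-labelled libraries were higher. The means were 81.5 ± 5.11 and 124 ± 6.17 FPKM (SD, n = 3), a log2 change of 0.60 (SE 0.048, 95% interval 0.49 to 0.70, limma adjusted p = 3.89e-07). The gene (ENSMUSG00000071715) lies on chromosome 15, 78244801 to 78262580, plus strand, with no overlapping gene. It had the fewest reads of the 6, 2678 at the lowest, for which counting error alone is -3.75% to 3.86% (exact Poisson, 95%). The sources used here mention no molecular identifiers, and this interval covers counting error only.

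Rac2, the Rac GTPase largely restricted to blood cells, read 148, 140.4 and 140.4 FPKM in the WT-labelled libraries and 195, 188 and 198 in the CKO-labelled ones. The groups did not overlap. The means were 143 ± 4.28 and 194 ± 5.29 FPKM (SD, n = 3), a log2 change of 0.44 (SE 0.032, 95% interval 0.37 to 0.51, limma adjusted p = 1.69e-07). The gene (ENSMUSG00000033220, chromosome 15, 78559167 to 78572783, minus strand) overlaps no other gene.

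Rac1, the Rac GTPase made in nearly all cells, was lower where Rac2 was higher. It read 65.9, 84.7 and 83.6 FPKM in the WT-labelled libraries and 63.5, 53.4 and 61.1 in the CKO-labelled ones. The groups did not overlap, but WT replicate 1, at 65.9, lay close to CKO replicate 1, at 63.5. The means were 78.0 ± 10.6 and 59.3 ± 5.29 FPKM (SD, n = 3), with a log2 change of -0.38 (SE 0.089, 95% interval -0.58 to -0.19, limma adjusted p = 0.00201). The call was not kept with median-of-ratios scaling, at -0.20 (limma adjusted p = 0.0649), or with TMM, at -0.20 (adjusted p = 0.0672), and was kept with quantile normalization, at -0.45.

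Rac1 stood apart in its spread. Its coefficient of variation was 13.5% in the WT-labelled libraries and 8.91% in the CKO-labelled ones, above 99.8% and 99.1% of the 2661 genes with at least 1000 reads in every library, whose medians were 2.68% and 2.90%. The gene (ENSMUSG00000001847, chromosome 5, 143503634 to 143528036, minus strand) shares 2309 of its 4496 exon bases, 51.4%, with Daglb on the opposite strand. Daglb, a diacylglycerol lipase gene, read 17.4 ± 0.710 FPKM in the WT-labelled libraries and 1.93 ± 0.0772 in the CKO-labelled ones, on average 2950 and 311 reads, beside 6182 and 4494 reads for Rac1. The kit marks strand, but whether the counting used strand is not given in the sources used here. The part of Daglb in the Rac1 difference was not tested.

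Permuting the labels exactly, 2-sided, gave p = 0.1 for each subunit, the smallest that 3 libraries a group allow (exact permutation test).

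**Figure D2:**
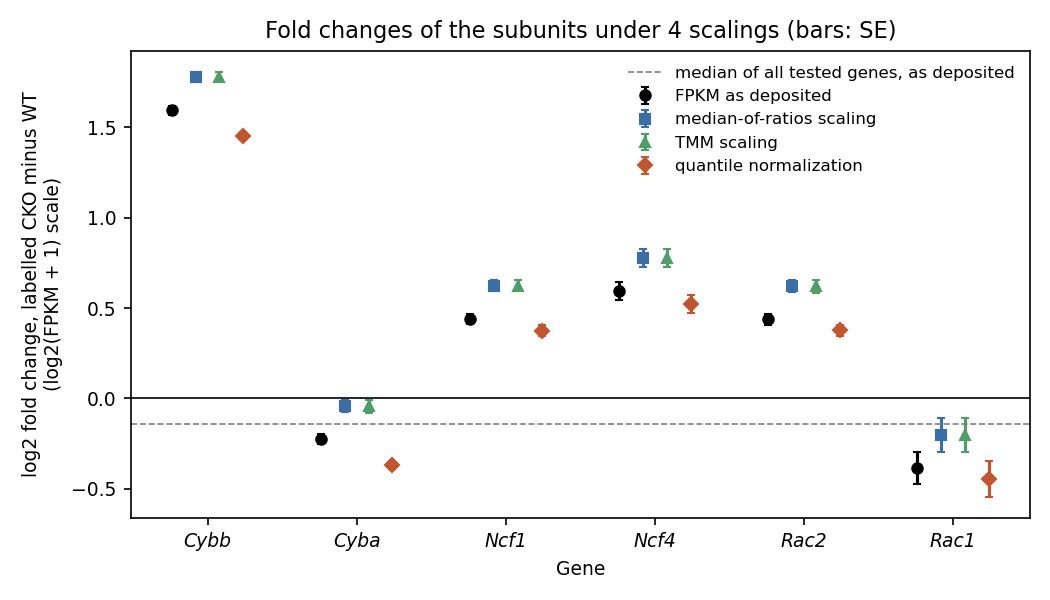
Log2 fold change (labelled CKO minus labelled WT, log2(FPKM + 1) scale) of each subunit with the deposited scaling and 3 others. Points are limma estimates, bars are SE, and the dashed line is the median of all tested genes, -0.14. Cybb stays between 1.45 and 1.78, while Cyba and Rac1 approach 0 under median-of-ratios and TMM scaling.

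With deposited values most called genes were lower, and scaling between libraries moved that balance. Median-of-ratios scaling moved the median of all tested genes by 0.15 on the log2 scale and TMM by 0.15. The higher share of calls was 37.7% as deposited, 51.2% with median-of-ratios scaling, 51.0% with TMM and 45.3% with quantile normalization. Relative to the median of all tested genes, Cybb changed by 1.74, Ncf4 by 0.74, Ncf1 by 0.58, Rac2 by 0.58, Cyba by -0.09 and Rac1 by -0.24.

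Ratios between subunits within a library do not depend on scaling between libraries, and FPKM is per length. In FPKM the balance of the membrane pair turned around. Cybb over Cyba was 0.326, 0.313 and 0.331 in the WT-labelled libraries and 1.18, 1.17 and 1.1 in the CKO-labelled ones. In FPKM Cybb was thus below Cyba in all 3 WT-labelled libraries and above it in all 3 labelled CKO. The shift was 1.83 on the log2 scale (group SDs 0.042 and 0.052). The crossing of 1 rests on the listed gene lengths, 5808 bases for Cybb and 1039 for Cyba, whereas the shift does not. In reads Cybb was above Cyba in every library, at 23649 or more against 14452 or fewer.

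Cybb also gained on the cytosolic subunits. Cybb over Ncf1 went from 1.98, 2.02 and 2.01 to 4.48, 4.46 and 4.43, and Cybb over Ncf4 from 2.82, 3.10 and 3.07 to 6.01, 6.32 and 5.63. By contrast Ncf1 over Rac2 was 0.842, 0.849 and 0.868 in the WT-labelled libraries and 0.857, 0.882 and 0.829 in the CKO-labelled ones. The groups overlapped for this pair, whose log2 ratio differed by 0.0048 (group SDs 0.023 and 0.045, exact permutation p = 0.9). A p of this size does not show that the genes act alike, but the difference was smaller than the SD of either group.

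In listed FPKM the Rac GTPases shifted towards Rac2. Rac1 over Rac2 was 0.446, 0.603 and 0.596 in the WT-labelled libraries and 0.325, 0.284 and 0.308 in the CKO-labelled ones. The groups did not overlap, and the log2 shift was -0.83. Rac1 shares 51.4% of its exon bases with Daglb, which was also lower under the CKO label. The part of Daglb in the ratios with Rac1 was not tested. Of 15 pairs of subunits 13 did not overlap between groups. The exceptions were Ncf1 over Rac2 and Cyba over Rac1 (log2 shift 0.16, exact permutation p = 0.3). Among all tested genes taken singly the groups did not overlap for 82.5%, and the share over other pairs of genes was not computed. The count of pairs by itself thus says little about the subunits. For the 13 pairs the exact two-sided permutation p was 0.1, the smallest possible, and 0.115 after Benjamini-Hochberg adjustment over the 15 pairs.

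**Figure D3:**
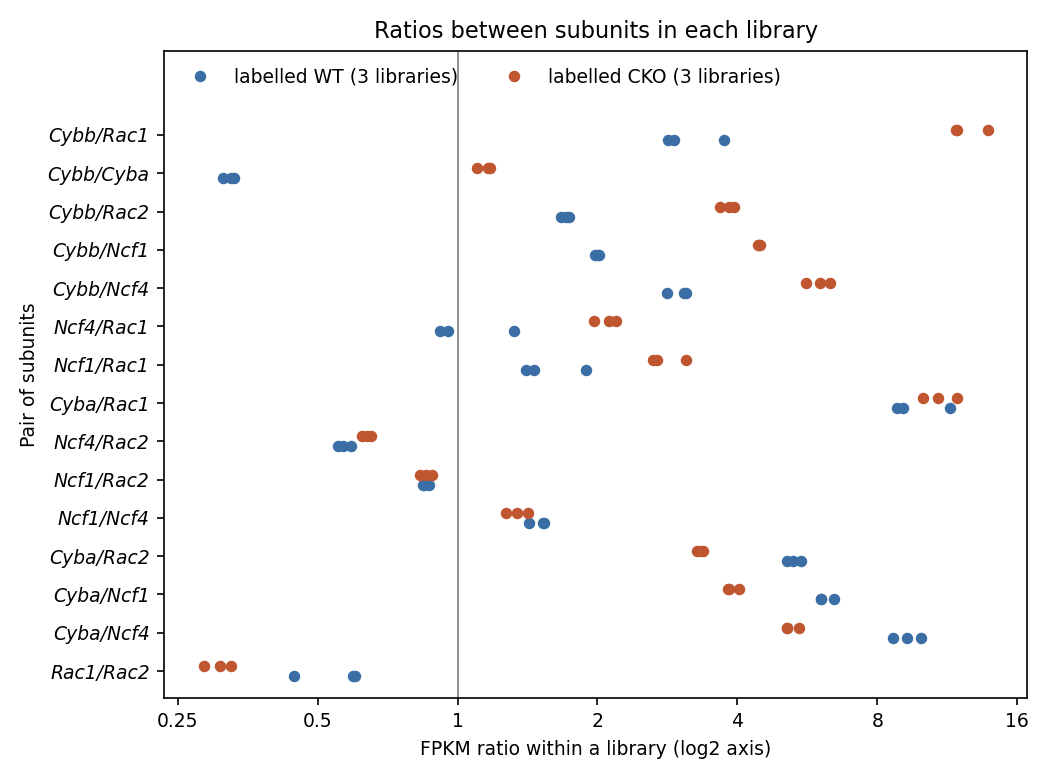
FPKM ratio of each of the 15 pairs of subunits within a library (log2 axis), with 3 points for WT-labelled libraries and 3 for those labelled CKO. Cybb over Cyba crosses 1, from near 0.323 to near 1.15, whereas Ncf1 over Rac2 stays near 0.85 in both groups.

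The order of levels in FPKM, which rests on the listed gene lengths, followed from these shifts. In all 3 WT-labelled libraries it began Cyba, Cybb, Rac2, Ncf1, and in all 3 labelled CKO it was Cybb, Cyba, Rac2, Ncf1, Ncf4, Rac1. Ncf4 and Rac1 changed places among the WT-labelled libraries, where replicate 1 had Ncf4 above Rac1 and the others had Rac1 above Ncf4. Those neighbours therefore did not differ beyond their spread in that group. The summed FPKM of the 6 was 1423 ± 12.3 in the WT-labelled libraries and 1926 ± 24.2 in the CKO-labelled ones. Of that sum Cybb made up 17.1% ± 0.296 and 38.4% ± 0.797, and Cyba 53.0% ± 0.650 and 33.5% ± 0.577 (SD, n = 3).

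The other genes of the oxidase pathway were read as 8 lists, whose 128 tested genes held 61 called higher (47.7%) and 57 called lower (44.5%), beside 30.5% and 50.5% of all tested genes. From each list up to 4 genes with the smallest p are named, and all of those kept their direction and call under the 3 other scalings. Proteins that mature, charge-balance or bind the oxidase went both ways: 8 of 16 were higher and 7 lower (all tested genes: 30.5% and 50.5%), with a median log2 change of 0.03. Cybc1, the chaperone needed for the membrane pair, rose from 19.8 ± 0.602 to 52.5 ± 1.35 FPKM (SD, n = 3). Nrros, which lowers the level of the catalytic protein, fell from 70.9 ± 0.476 to 34 ± 1.20. Prdx6, a peroxiredoxin whose phospholipase activity aids the oxidase, rose from 20.4 ± 0.320 to 206 ± 9.28, and P4hb, a disulfide isomerase, from 210.3 ± 3.47 to 390.3 ± 2.23. After median-of-ratios scaling 10 of the 16 were higher and 5 lower. S100a8 and S100a9 stand both in this list and among the neutrophil markers below.

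Other NADPH oxidases were near absent. Of 10 relatives, Nox1, Nox3, Nox4, Duox1, Duox2, Duoxa1, Duoxa2, Noxo1 and Noxa1 stayed under 1 FPKM on average in both groups, and Nox4, Duoxa1 and Duoxa2 were listed at 0 in every library. The only relative tested was Rac3, the third Rac GTPase, which fell from 1.39 ± 0.0515 to 0.880 ± 0.162 FPKM, a log2 change of -0.35.

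Of 22 regulators of Rac 14 were lower (63.6%) and 7 higher (31.8%), shares near those of all tested genes, 50.5% and 30.5%. Their median log2 change was -0.63, against -0.14 over all tested genes. Dock2, a Rac exchange factor of blood cells, fell from 51.3 ± 0.370 to 20.8 ± 0.915 FPKM, and Arhgef6, another exchange factor, from 41.0 ± 1.01 to 18.5 ± 0.308. The GTPase-activating genes Arhgap25 and Arhgap15, which switch Rac off, fell from 41.5 ± 1.64 to 15.7 ± 0.667 and from 4.49 ± 0.234 to 0.762 ± 0.128. Exchange factors and GTPase activators, which act in opposite directions on Rac, were thus both among the lower genes. Rising members included Vav1 and Prex1, exchange factors with log2 changes of 0.49 and 0.51. Another was Arhgdib, the inhibitor that holds Rac in the cytosol, at 0.71. Vav2 and Vav3, also exchange factors, were lower, at -1.01 and -1.07. Vav1, Vav2, Vav3, Prex1 and Arhgdib were named after their values were seen.

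Kinase and lipid inputs were 9 of 24 higher (37.5%) and 13 lower (54.2%), also near the shares of all tested genes, 30.5% and 50.5%, with a median log2 change of -0.32. Pla2g4a, the phospholipase that releases arachidonate, rose from 3.75 ± 0.106 to 20.6 ± 0.719 FPKM. Plcg2, which makes diacylglycerol, fell from 68.8 ± 1.02 to 39.3 ± 0.485 and Pik3r5, a regulatory subunit of PI3-kinase gamma, from 87.9 ± 1.82 to 55.9 ± 0.706. Prkcd, a protein kinase C that phosphorylates the organiser subunit, changed by -0.56 on the log2 scale and was named after its value was seen.

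Of 19 tested receptors that trigger, prime or restrain the oxidase 13 were higher (68.4%) and 5 lower (26.3%), beside 30.5% and 50.5% of all tested genes. Their median log2 change was 0.44. The formyl peptide receptors Fpr1 and Fpr2 went from 1.97 ± 0.268 to 294 ± 21.1 FPKM and from 1.94 ± 0.400 to 237 ± 1.77. Clec4e, a receptor for mycobacterial glycolipid, rose from 48.3 ± 1.86 to 1154 ± 6.92, and Tnfrsf1b, a receptor for tumour necrosis factor, from 258 ± 1.3 to 1010 ± 4.59. Genes that supply NADPH or glucose were 10 of 16 higher (62.5%) and 5 lower (31.3%), against the same shares of all tested genes, with a median of 0.41. G6pdx, which makes NADPH in the pentose phosphate pathway, rose from 113 ± 2.51 to 179 ± 2.09, the glucose transporter Slc2a1 from 8.78 ± 0.717 to 137 ± 3.04 and the hexokinase Hk2 from 15.5 ± 0.483 to 49.6 ± 1.79. Idh1, a cytosolic NADPH source, fell from 182 ± 3.44 to 64.3 ± 1.56.

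Enzymes that remove superoxide and peroxide were 8 of 13 higher (61.5%) and 3 lower (23.1%), beside 30.5% and 50.5% of all tested genes, with a median log2 change of 0.54. Sod2, the mitochondrial superoxide dismutase, rose from 10.4 ± 0.389 to 175 ± 1.5 FPKM, the peroxiredoxins Prdx5 and Prdx1 from 72.7 ± 1.82 to 619 ± 15.7 and from 516 ± 18.6 to 3520 ± 87.0, and the thioredoxin reductase Txnrd1 from 45.4 ± 1.05 to 119.6 ± 1.72. Among the 17 tested transcription factors known at these promoters or in these cells 6 were higher (35.3%) and 9 lower (52.9%), near the shares of all tested genes, with a median of -0.12. Irf1, a factor of interferon signalling, rose from 13 ± 1.3 to 52.1 ± 3.03. Cebpa, a myeloid factor, fell from 51.9 ± 4.76 to 13 ± 0.253 and Nfe2l2, the oxidant-response factor, from 123 ± 4.41 to 70.7 ± 0.634. Spi1, which encodes PU.1 and was named after its values were seen, read 139.7 ± 2.81 and 135 ± 1.78 FPKM, a log2 change of -0.04 (limma adjusted p = 0.168). It was called higher after median-of-ratios and TMM scaling (0.14 each) and lower after quantile normalization (-0.15).

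**Figure D4:**
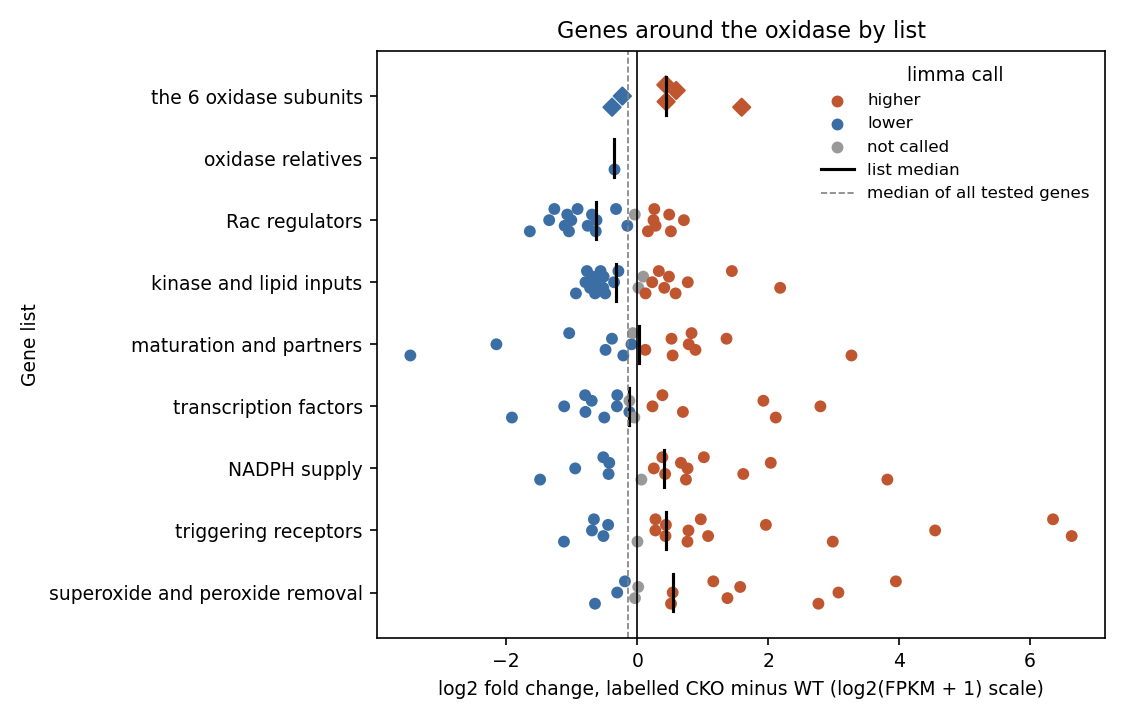
Log2 fold change (labelled CKO minus labelled WT, log2(FPKM + 1) scale) of the 6 subunits (diamonds) and of the tested genes of 8 lists (circles), coloured by limma call. Black lines are list medians and the dashed line is the median of all tested genes. The Rac regulators have the lowest median among lists with more than 1 tested gene, -0.63, and superoxide and peroxide removal the highest, 0.54.

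Markers of other cells that carry the oxidase moved between the groups as well. Summed FPKM of 17 neutrophil markers was 690.3 to 993 in the WT-labelled libraries and 280.1 to 288 in the CKO-labelled ones, with 11 called lower and 2 higher of 14 tested, beside 50.5% and 30.5% of all tested genes, and the defining genes Ly6g and Cxcr2 under 1 FPKM in both groups. Most of the sum under the WT label was S100a9 and S100a8, at means of 425 and 153 FPKM. Without them, a sum chosen after seeing the data, the other 15 gave 227 to 309.6 and 201 to 220.3. For 10 monocyte markers the sum was 161 to 192 and 549 to 590.3, with 6 higher (66.7%) and 2 lower (22.2%) of 9 tested. The shares over all tested genes were 30.5% and 50.5%. The median log2 change of the 9 was 0.37, a smaller rise than that of the sum, which weighs abundant genes most. For 11 eosinophil, mast cell and basophil markers the sum was 12.8 to 15.3 and 2.97 to 3.85, with 4 of 4 tested lower and Epx and Ccr3 under 1 FPKM. For 10 dendritic cell markers the sum went from between 118 and 133 to between 1058 and 1121, of which Bst2, also an interferon-responsive gene, made up most (12.2 to 12.9 and 21.7 to 24.9 without it), with 7 of the 10 under 1 FPKM in both groups. Sums for B and plasma cell, T and NK cell, and endothelial, fibroblast and smooth muscle markers were at most 6.14, 5.55 and 28.8 FPKM in any library. Of their tested genes, 2 of 2, 1 of 1 and 2 of 4 were called lower, and the other 2 of the last list higher. The part of such cells in the subunit differences was not tested.

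Genes whose values over the 6 libraries were most like each subunit were found by the root mean square difference of log2(FPKM + 1) about the gene's mean, in a design with only 2 groups. For Cybb these were Cmklr1, a chemerin receptor, Tapbp, which loads MHC class I molecules, and Ptgr1, a prostaglandin reductase, at 0.0275, 0.0284 and 0.0287. For Cyba they were Gabarap, Atp5g3 and Akt1s1 at 0.014 to 0.016, for Ncf1 Ostc, Sptlc2 and P2ry2 at 0.015 to 0.016, and for Rac2 Tlr2, Csf2rb2 and Bud31 at 0.015 to 0.018. Ncf4 lay nearest to Pstpip1, Drg2 and Gtf2h3 at 0.030 to 0.033. Rac1 had the least close neighbours, Hnrnpa0, Tesk1 and Alyref at 0.046 to 0.060. Among the subunits themselves the closest pair was Ncf1 and Rac2 at 0.029 and the most distant Cybb and Rac1 at 1.00.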

How the data were processed

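RNA sequencing values of 6 libraries (3 labelled WT, 3 labelled CKO, grouped and numbered by title) were used. The authors deposited 1 FPKM table per library, per the file headers, with 21936 genes and no value below 0. Tools named in the submitters' processing notes, without their role, were HISAT2 2.1.0, fastp 0.19.3, featureCounts 1.6.2, StringTie 1.3.4d, GATK 4.0.11.0, Cufflinks and DESeq2 1.22.1, and the build was mm10. Coordinates are those of the files; for the 6 subunits they equal GENCODE M21, which also gave exon overlap.

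FPKM times gene length was a whole multiple of 1 step for 100% of values above 0 within 0.01 reads, which gave reads per gene. These served for depth, counting error and 1 alternative test. The chi-square per degree of freedom between libraries was 2.16 to 3.18 inside a group and 404 to 449 across them, so all pairs differed by more than counting noise.

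Genes reaching an FPKM of 1 in 3 or more libraries were fitted with limma 3.58.1 (intensity trend, group as the only term) in R 4.3.3 on log2(FPKM + 1). Fold changes are labelled CKO minus labelled WT on that scale, which understates changes of low genes, and p-values were adjusted by Benjamini-Hochberg over all 9953 tested genes and called under 0.05. The step was run on simulated reads in which few genes changed, equally up and down. Most genes were called here, so that run does not gauge the calls in these data. Ratios were compared by exact two-sided permutation tests in Python 3.11.15 with scipy 1.17.1. Members, lists and tests were chosen with earlier results of these data known. Named were the 6 subunits, Alkbh5, Apoe and Lyz2, up to 4 tested genes per list with the smallest p, and 3 genes most like each subunit, clone-style symbols left out. Of the genes this rule names, 2 are not reported here. Alternatives were leaving out each library, a replicate block, other pseudocounts (0.1, 0.5), filters (none, or a mean FPKM of 5 or more) and scalings (TMM, quantile, median-of-ratios), limma without trend, and limma voom on the recovered reads, the last chosen after seeing the files. edgeR and DESeq2 were not run on the recovered reads, and limma voom was added in their place.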

Additional observations from a re-analysis of the deposited data

How the results depend on the processing

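Under every alternative run of the limma test, Cybb (1.45 to 1.78), Ncf1 (0.38 to 0.62), Ncf4 (0.52 to 0.78) and Rac2 (0.38 to 0.62) kept their direction and call. Cyba and Rac1 kept their direction but lost the call under median-of-ratios scaling (-0.042 with adjusted p = 0.238, and -0.20 with 0.0649) and under TMM scaling (-0.043 with 0.272, and -0.20 with 0.0672), both of which shift all genes upwards. With 1 library left out in turn and the tested genes held, no subunit lost its call, and Rac1 ranged from -0.50 without WT replicate 1 to -0.31 without CKO replicate 2. With a library left out, the log2 shift of Cybb over Cyba ranged from 1.80 to 1.86 and that of Rac1 over Rac2 from -0.97 to -0.75. Calls over all genes were 3038 higher and 5031 lower; at a mean FPKM of 5 or more the lower calls were 3185, where fewer genes were tested. The replicate block changed no call among the subunits, with 3018 higher and 5023 lower over all genes. Deviations of same-numbered libraries correlated at 0.019, 0.012 and -0.039, and those of differently numbered ones at -0.057 to 0.045. No deviation shared by number was thus seen, which does not show whether the libraries were paired. The planned edgeR and DESeq2 fits were not run. With 3 libraries per group, differences the size of that in Ncf1 over Rac2 could not be told from 0.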
